A study of Homo sapiens with 6 samples.

Results

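Metallothioneins are small, cysteine-rich proteins that bind zinc and copper in the cytosol. *MTF1* encodes the zinc-sensing transcription factor that binds metal response elements in metallothionein promoters when free zinc rises. *SLC30A1* encodes the zinc exporter of the plasma membrane and is a known target of the same factor, so both products lower free zinc, one by binding it and the other by moving it out of the cell. 10 genes of this response were followed among the 20348 genes measured: the 8 metallothionein genes *MT2A*, *MT1A*, *MT1E*, *MT1F*, *MT1G*, *MT1H*, *MT1M* and *MT1X*, together with *MTF1* and *SLC30A1*. They were picked by symbol, with their counts in both groups already known, so their values are given as a description. Their test calls are only counted beside the shares over all genes and are not used as support.

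RNA-seq was performed in MV4-11 cells, a human cell line of acute myeloid leukemia (AML). Cells received a blank control (Control, 3 samples) or 1 μM of the WNK kinase inhibitor WNK463 (3 samples) for 48 h. A single cell line, dose and time point was sequenced, the content of the blank control is not stated, and the labels do not say that samples came from separate cultures, so errors and p-values measure the spread between these samples. In bulk RNA, more transcript per cell and more cells with the transcript cannot be told apart.

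The samples held between 14915745 and 17411780 estimated counts. Of 10 markers of myeloid leukemia cells, all 10 passed the filter on low counts. With edgeR's test 5 rose, 4 fell and 1 did not pass at an adjusted p below 0.05. Of all genes tested, 35.5% rose and 35.3% fell by the same rule. *LYZ*, the lysozyme gene of myeloid cells, fell from 1355 ± 43.7 to 291 ± 11.6 CPM (mean ± SD of 3 samples), or -2.22 as log2 fold change, and *MPO*, myeloperoxidase, had -2.50, while *PTPRC*, the leukocyte marker CD45, had 1.20. The part of these marker differences in the results below was not tested. Of 8 markers of T, B, epithelial, fibroblast, erythroid and liver cells, 0 passed the filter, 4 had 0 counts in every sample, among them *CD3D*, *EPCAM* and *HBB*, and their summed level was 0.527 to 0.710 TPM in Control and 0.917 to 1.36 TPM with WNK463. TPM are transcript abundances scaled for gene length to a fixed total, and CPM are counts scaled to the normalized library size.

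The 8 metallothionein genes lie in a stretch of 75998 bases on chromosome 16 of GRCh38, from 56608199 to 56684196 in GENCODE 29. Only *MT1G* lies on the minus strand. *MT2A* opens the stretch at 56608199 to 56609497, and *MT1X* closes it at 56682424 to 56684196. *MTF1* lies on chromosome 1 from 37809567 to 37859620 and *SLC30A1* on chromosome 1 from 211571568 to 211578742, both on the minus strand.

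Promoters are shown because metal response elements are the sites that *MTF1* protein is known to bind. The core of the element was searched as TGCACNC and TGCGCNC on both strands, in the 250 bases before the RefSeq start (GRCh38.p14), and capitals mark each match. The windows are chr16:56608334-56608583 for *MT2A*, chr16:56682220-56682469 for *MT1X*, chr16:56669564-56669813 for *MT1H* (all plus strand) and chr1:211579162-211579411 for *SLC30A1* (minus strand).
MT2A: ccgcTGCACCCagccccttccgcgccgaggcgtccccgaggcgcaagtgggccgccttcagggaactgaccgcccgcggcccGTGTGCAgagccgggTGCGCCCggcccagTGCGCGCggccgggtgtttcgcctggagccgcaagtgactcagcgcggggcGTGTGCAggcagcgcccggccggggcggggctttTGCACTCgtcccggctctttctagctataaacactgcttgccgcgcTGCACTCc
MT1X: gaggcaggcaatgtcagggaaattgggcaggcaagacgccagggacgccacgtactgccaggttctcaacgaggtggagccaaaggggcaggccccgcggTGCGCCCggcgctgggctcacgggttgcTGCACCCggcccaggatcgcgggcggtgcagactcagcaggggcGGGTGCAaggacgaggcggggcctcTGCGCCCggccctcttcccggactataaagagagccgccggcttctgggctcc
MT1H: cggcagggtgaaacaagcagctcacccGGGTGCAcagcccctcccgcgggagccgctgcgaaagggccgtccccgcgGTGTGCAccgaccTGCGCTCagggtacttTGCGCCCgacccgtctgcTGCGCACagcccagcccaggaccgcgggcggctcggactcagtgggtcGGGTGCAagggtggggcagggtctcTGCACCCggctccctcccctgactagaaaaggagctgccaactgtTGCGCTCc
SLC30A1: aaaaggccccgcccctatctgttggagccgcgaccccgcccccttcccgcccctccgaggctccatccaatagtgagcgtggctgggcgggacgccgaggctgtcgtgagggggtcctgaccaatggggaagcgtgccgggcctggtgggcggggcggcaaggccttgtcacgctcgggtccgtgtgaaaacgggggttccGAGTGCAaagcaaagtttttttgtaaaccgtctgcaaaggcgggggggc

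The *MT2A* window held 7 separate matches, the *MT1X* window held 4, the *MT1H* window 8 and the *SLC30A1* window 1. Of 35116 promoter windows of this length, 24.8% held at least 1 such stretch, 0.208% at least 4, 0.0228% at least 7 and 0.0142% at least 8. In *MT2A* the matches began 246, 168, 153, 139, 88, 54 and 8 bases before the start. In *MT1X* they began 150, 122, 78 and 53 bases before it, and the only match in *SLC30A1* began 49 bases before it. The RefSeq starts differ from the GENCODE 29 starts of *MT2A*, *MT1X*, *MTF1* and *SLC30A1* given above. The *MT2A* window lies inside the GENCODE 29 gene, and the *MT1X* and *MTF1* windows overlap theirs in part. The *SLC30A1* window ends upstream of the GENCODE 29 gene, so the bases next to that start were not searched. The *MTF1* window held 0 matches, which says only that these letters are not in it. 5 of the 10 genes had a promoter in the RefSeq table, and *MT1A*, *MT1E*, *MT1F*, *MT1G* and *MT1M* had no entry. The number of matches did not order the genes by level, since *MT1H*, with the most, was the one of these 4 genes with almost no reads.

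*MT2A* (ENSG00000125148), the most abundant metallothionein in both groups, measured 283, 299.8 and 312 TPM in the Control samples and 1812, 1975 and 1939.8 TPM with WNK463. Every WNK463 value was more than any Control value, and the gene moved from rank 465 to rank 61 of the 20348 genes by mean TPM. On the CPM scale the level went from 64.4 ± 2.65 to 360.4 ± 15.6 (SD, n = 3 each), 5.60-fold higher, and the log2 fold change fitted by edgeR was 2.49 (standard error 0.05).

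*MT1G* (ENSG00000125144) came next, with 185, 173 and 177 TPM in Control and 607, 608 and 676 TPM with WNK463. Its log2 fold change was 1.63 (standard error 0.06). *MT1F* (ENSG00000198417) had the same log2 fold change of 1.63 (standard error 0.08) from a lower level, with 69.7, 68.9 and 69.3 TPM in Control and 231, 261 and 245 TPM with WNK463. The groups of both genes were far apart compared with the spread within them.

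*MT1X* (ENSG00000187193) had 109.7, 112 and 119 TPM in Control and 320.5, 312 and 315 TPM with WNK463, a log2 fold change of 1.28 (standard error 0.07). *MT1E* (ENSG00000169715) had 98.7, 101 and 114 TPM in Control and 287, 327 and 296 TPM with WNK463, a log2 fold change of 1.29 (standard error 0.07). Within a sample, *MT1X* had more TPM than *MT1E* in all 3 Control samples and in 2 of the 3 WNK463 samples, while the ranges over samples overlapped in both groups. Their fold changes differed by less than 1 standard error. Mean CPM of these 5 metallothioneins was 2.43-fold to 5.60-fold higher after WNK463, with *MT1X* at the low end and *MT2A* at the high end.

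*MT1M*, *MT1H* and *MT1A* were below the filter on low counts. *MT1M* (ENSG00000205364) had 0 counts in each Control sample and 1, 4 and 3 counts with WNK463. *MT1H* (ENSG00000205358) had 0 counts in each Control sample and 1, 1 and 2 counts with WNK463. *MT1A* (ENSG00000205362) had 0 counts in all 6 samples, which per sample allows up to 0.174 to 0.206 CPM at a ceiling of 3 counts, for counting error only. No fold change was computed for these 3 genes. Almost all reads of the family thus came from 5 of the 8 genes in these cells.

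**Figure D1:**
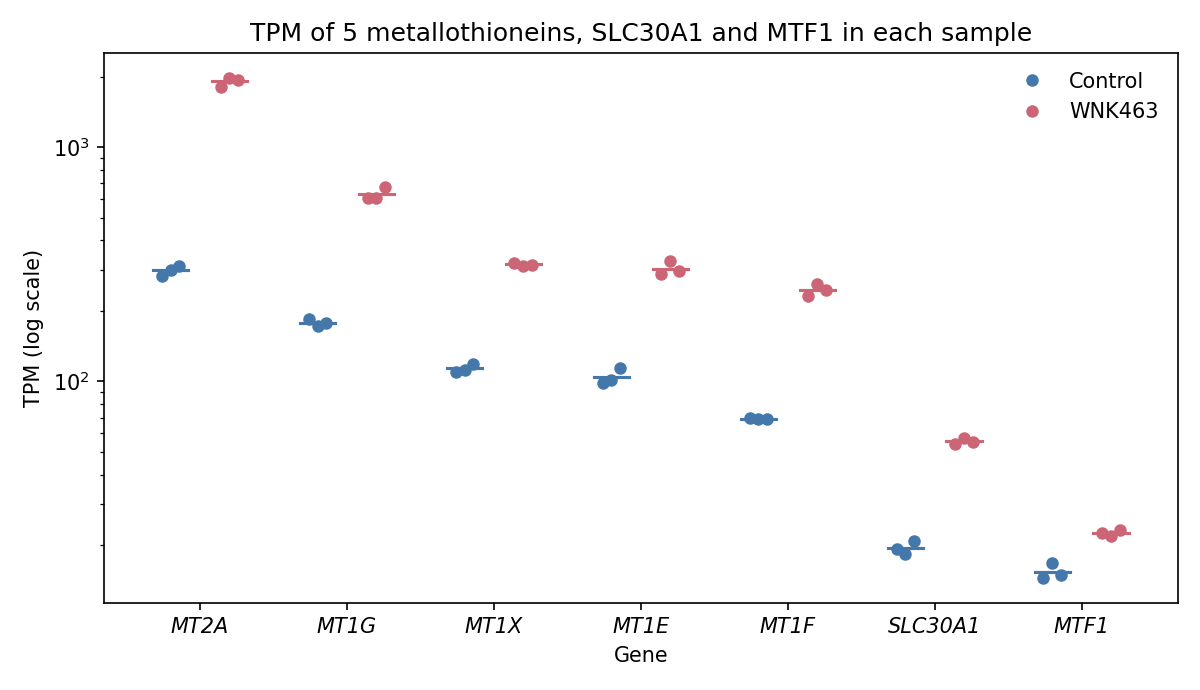
TPM on a log axis for 5 metallothioneins, *SLC30A1* and *MTF1*, with 1 point per sample and a line at the mean of each group of 3 samples. In each gene the WNK463 points lie above the Control points, with the widest gap in *MT2A* (mean 298 against 1909 TPM) and the narrowest in *MTF1* (15.4 against 22.5 TPM).

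Metallothionein transcripts resemble each other, so reads can be split between copies in more than one way. Of all 50-base windows of the annotated transcripts, 97.0% in *MT2A*, 98.8% in *MT1F*, 92.9% in *MT1E*, 83.5% in *MT1G* and 81.7% in *MT1X* occurred in no other GENCODE gene. With 100-base windows the share was 100% in these genes except *MT1X*, at 88.7%, where the shared windows belonged to an overlapping transcript, AC026461.1. Of the 50-base windows of *MT1M* and *MT1H*, 90.1% and 84.2% occurred in no other gene. *MT1M* shared 33 of them with *MT1E*, and *MT1H* shared 54 with *MT1G*. Whether the few counts of *MT1M* and *MT1H* came from such reads was not tested. The read length is not given in the sources used here, so the values of single *MT1* genes carry this uncertainty. The summed counts of the 8 genes do not change with how reads were split among these genes, whereas summed TPM do, and some windows were shared with genes outside the 8, such as the pseudogene *MT1JP*.

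The summed metallothionein level was 745, 755 and 791 TPM in Control and 3258, 3485 and 3474 TPM with WNK463. The mean was 764 ± 24.0 TPM against 3406 ± 128 TPM (SD, n = 3 each). On the CPM scale it was 181 ± 5.15 against 682 ± 25.7, a ratio of 3.77 and a log2 ratio of 1.91. Without *MT2A*, the sum still went from 116.8 ± 3.22 to 322 ± 10.4 CPM, a log2 ratio of 1.46.

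The make-up of the sum changed along with its size. *MT2A* accounted for 37.9%, 39.7% and 39.4% of summed metallothionein TPM in the Control samples and 55.6%, 56.7% and 55.8% with WNK463, a mean difference of 17.0 percentage points. The shares of the other four were lower after WNK463 in every sample, with *MT1X* at 14.9% ± 0.171 against 9.29% ± 0.479 and *MT1G* at 23.4% ± 1.25 against 18.5% ± 1.02 (SD, n = 3 each). The ratio of *MT2A* to *MT1X* TPM, which does not change with the scaling of the libraries, was 2.62 ± 0.046 in Control and 6.05 ± 0.349 with WNK463.

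**Figure D2:**
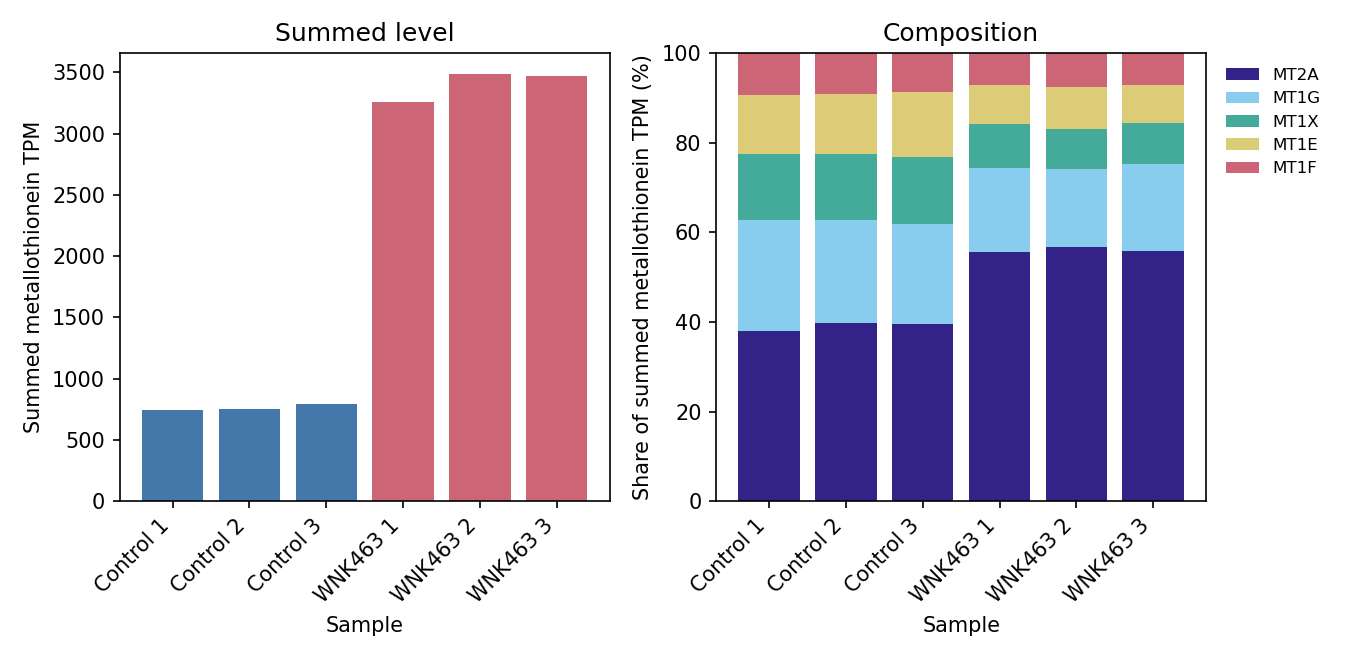
The left bars give summed metallothionein TPM in each sample, and the right bars give the share of that sum, in percent, held by each of 5 metallothioneins. The 3 WNK463 samples reach 3258 to 3485 TPM against 745 to 791 TPM in Control, and the *MT2A* share is 55.6% to 56.7% against 37.9% to 39.7%.

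*SLC30A1* (ENSG00000170385), the zinc exporter, had 19.3, 18.3 and 20.7 TPM in Control and 54.1, 57.2 and 55.2 TPM with WNK463. In CPM it went from 61.7 ± 3.85 to 154 ± 3.56 (SD, n = 3 each), or a fitted log2 fold change of 1.32 (standard error 0.06), close to those of *MT1E* and *MT1X*. The ratio of summed metallothionein TPM to *SLC30A1* TPM was 39.3 ± 1.58 in Control and 61.4 ± 1.43 with WNK463.

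*MTF1* (ENSG00000188786), the regulator, differed least. It had 14.5, 16.8 and 14.9 TPM in Control and 22.5, 21.9 and 23.2 TPM with WNK463, and its groups did not overlap. In CPM it went from 65.9 ± 4.69 to 84.2 ± 3.12 (SD, n = 3 each), or a fitted log2 fold change of 0.36 (standard error 0.06). The median absolute log2 fold change of all genes tested was 0.40. In 37.1% of them the WNK463 values lay above the Control values in CPM without overlap. When libraries were scaled to their total counts and not by TMM, the median log2 fold change over all genes moved up by 0.15, and the value of *MTF1* was then 0.51. Within groups, the order of *MTF1* and *SLC30A1* by TPM was the same in every sample, with *SLC30A1* higher and no overlap.

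With edgeR's quasi-likelihood test, the 7 genes above the filter all had an adjusted p below 0.05 and were higher, in a contrast where 35.5% of the 11973 genes tested were higher by this rule. With a log2 fold change of at least 1 required as well, 6 of the 7 were higher, against 9.62% of all genes tested. In all 7 the 3 WNK463 values lay above the 3 Control values in CPM, as in 37.1% of all genes tested. Because the genes were chosen with this contrast known, these counts only describe them and cannot serve as a test.

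Other genes of zinc, copper and metal handling were taken from lists made by gene function, and an adjusted p below 0.05 is called passing. The background is the 35.5% of genes that were higher and the 35.3% that were lower by the same rule. Of the other metallothioneins, *MT1B*, *MT1HL1*, *MT3* and *MT4* had 0 counts in all 6 samples. The 8 metallothionein pseudogenes of that list were not analysed here. One of them, *MT1JP*, holds 35 of the 50-base windows of *MT1E* and 40 of those of *MT1M*.

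Among the other zinc exporters the differences were small. Of 10 listed, 5 were tested, 2 rose and 0 fell, with a median log2 fold change of 0.13. *SLC30A7*, which loads zinc into the secretory pathway, rose from 49.5 ± 0.284 to 67.9 ± 5.41 CPM, a log2 fold change of 0.45 (standard error 0.07, adjusted p = 6.8e-06 from edgeR). *SLC30A5*, which acts in the same pathway, rose by 0.25 (standard error 0.05, adjusted p = 3.5e-04). *SLC30A6*, its partner, had 0.13 (adjusted p = 0.066), and *SLC30A9*, a mitochondrial zinc transporter, had -0.08 (adjusted p = 0.14). *SLC30A6* passed with total-count scaling (log2 fold change 0.28) and without Control replicate 3 (adjusted p = 0.031), and *SLC30A9* had 0.07 with total counts. None of the 5 tested reached the log2 fold change of 1.32 of *SLC30A1*, and the other 5 had at most 7 counts in any sample.

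Zinc importers of the SLC39A family, which bring zinc into the cytosol, went both ways. Of 14 listed, 11 were tested, 6 rose, 3 fell and 2 did not pass, with a median of 0.14. *SLC39A10*, an importer of the plasma membrane, rose from 42.0 ± 4.02 to 100.4 ± 10.7 CPM, a log2 fold change of 1.26 (standard error 0.08, adjusted p = 1.7e-10 from edgeR). *SLC39A6*, its closest relative, rose by 0.46 (standard error 0.06, adjusted p = 3.8e-06). *SLC39A14*, which also carries iron and manganese, fell from 118.6 ± 2.37 to 62.0 ± 5.71 CPM, a log2 fold change of -0.94 (standard error 0.06, adjusted p = 3.9e-10). *SLC39A4*, the importer of dietary zinc in the gut, fell by 0.65 on the log2 scale (standard error 0.09, adjusted p = 3.5e-06). The fall of *SLC39A7*, which releases zinc from the endoplasmic reticulum, was -0.20 (adjusted p = 0.0039), and its value was -0.05 (adjusted p = 0.41) with total-count scaling. *SLC39A13* and *SLC39A3* did not pass in edgeR's test but did as higher with limma on log2(TPM + 1) (0.40 and 0.20, adjusted p = 0.0056 and 0.011), where the sign of *SLC39A3* turned. *SLC39A1* passed narrowly (log2 fold change 0.13, adjusted p = 0.045) and did not pass with DESeq2 (0.088) or without Control replicate 2, Control replicate 3, WNK463 replicate 1 or WNK463 replicate 3 (0.085 to 0.18).

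Other genes with a known link to *MTF1* went both ways. Of 8 tested, 3 rose, 3 fell and 2 did not pass, with a median of -0.09. *SLC39A10*, known as a gene that *MTF1* protein represses, was among those that rose. *GCLC*, the catalytic subunit of the enzyme that starts glutathione synthesis, rose from 18.1 ± 0.816 to 39.0 ± 1.88 CPM, a log2 fold change of 1.11 (standard error 0.08, adjusted p = 7.2e-10 from edgeR). *PGF*, a growth factor of the VEGF family, rose from 1.71 ± 0.481 to 3.97 ± 0.249 CPM (log2 fold change 1.22, adjusted p = 2.9e-04). *NDRG1*, a stress-response gene, fell from 138 ± 5.21 to 58.2 ± 4.29 CPM, a log2 fold change of -1.25 (standard error 0.06, adjusted p = 5.0e-12). The selenoprotein genes *SELENOH* and *SELENOW* did not pass, with -0.02 and -0.15, and *SELENOH* passed with the opposite sign (0.19, adjusted p = 0.017) with limma on log2(TPM + 1). *CSRP1* fell by 0.29 on the log2 scale (adjusted p = 1.5e-04 from edgeR) but did not pass with limma on log2(TPM + 1) (-0.09, adjusted p = 0.16). *SLC40A1*, the iron exporter, had -0.60 with an adjusted p of 0.043 in edgeR's test. That adjusted p was 0.066 to 0.13 when any 1 Control replicate, WNK463 replicate 1 or WNK463 replicate 3 was left out. It was 0.087 with DESeq2, 0.12 with total counts, 0.055 without a filter and 0.14 with limma on log2(TPM + 1).

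Genes that heavy metals induce besides metallothioneins went both ways. Of 10 tested, 3 rose, 6 fell and 1 did not pass, with a median of -0.33. *HMOX1*, which degrades heme, rose from 0.767 ± 0.321 to 2.62 ± 0.407 CPM, a log2 fold change of 1.74 (standard error 0.34, adjusted p = 1.7e-04 from edgeR), with 47 counts at most in any sample. *SLC7A11*, the cystine importer, rose from 5.62 ± 0.309 to 17.1 ± 1.33 CPM (log2 fold change 1.60, adjusted p = 1.5e-09). The heat shock genes *HSPA1A*, *HSPA1B*, *HSPH1* and *DNAJB1* all fell, with log2 fold changes of -0.90, -0.57, -0.57 and -0.46, and *HSPA1A* and *HSPA1B* are near-identical copies whose reads may be split. *BAG3*, a chaperone partner, passed narrowly (-0.21, adjusted p = 0.021) and did not pass with total counts (0.51), without Control replicate 1 (0.066) or without WNK463 replicate 2 (0.11). *SRXN1*, which repairs oxidized peroxiredoxins, fell from 31.2 ± 1.81 to 14.4 ± 1.94 CPM, a log2 fold change of -1.11 (standard error 0.10, adjusted p = 1.3e-08).

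Copper handling genes, whose metal metallothioneins also bind, went both ways, and their count, like that of all genes, depended on the scaling. Of 11 tested, 2 rose, 3 fell and 6 did not pass, with a median of 0.11. With total counts, *ATOX1*, *COX11* and *SCO2* passed as well (log2 fold changes of 0.26, 0.33 and 0.31), which made 5 higher and 3 lower. Of all 11973 genes tested, 5525 were higher and 3123 lower with total counts, against 4251 and 4222 with TMM. For copper genes limma on log2(TPM + 1) gave 5 higher and 2 lower. *SLC31A1*, the high-affinity copper importer, fell from 49.4 ± 3.89 to 35.3 ± 2.30 CPM, a log2 fold change of -0.48 (standard error 0.07, adjusted p = 1.5e-05 from edgeR). *SCO1*, which delivers copper to cytochrome c oxidase, fell by 0.45 on the log2 scale (adjusted p = 1.5e-06). *ATP7A*, a copper exporter, rose by 0.52 (standard error 0.19, adjusted p = 0.022). *ATP7B*, the other copper-exporting pump, had a log2 fold change of -1.07 (standard error 0.38, adjusted p = 0.018) from 1.24 ± 0.066 CPM in Control. The calls of *ATP7A* and *CCS* were lost without Control replicate 3 (adjusted p = 0.088 and 0.065), that of *ATP7A* also without Control replicate 1 (0.098) or WNK463 replicate 3 (0.061), and that of *CCS* also without WNK463 replicate 2 (0.10). The call of *ATP7B* was lost with DESeq2 (0.055) and without WNK463 replicate 2 (0.085) or WNK463 replicate 3 (0.062). Leaving out 1 sample made *SLC31A2* (without Control replicate 3, adjusted p = 0.010), *COMMD1* (without Control replicate 2, 0.033) and *COX11* (without Control replicate 1, 0.022, or WNK463 replicate 1, 0.049) pass.

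Glucocorticoids also induce metallothioneins, *MT2A* in particular, so genes that this hormone class induces were listed too, together with its receptor gene *NR3C1*. Of 9 tested, 6 rose, 2 fell and 1, *NR3C1*, did not pass, with a median of 0.49. *TSC22D3*, which encodes the leucine zipper protein GILZ, rose from 46.5 ± 1.39 to 86.2 ± 3.29 CPM, a log2 fold change of 0.89 (standard error 0.06, adjusted p = 2.9e-10 from edgeR). *ERRFI1*, a feedback inhibitor of EGF receptor signaling, rose by 1.03 (standard error 0.20, adjusted p = 1.9e-04). *KLF9* and *CEBPD* rose by 0.51 and 0.49 (adjusted p = 6.1e-06 and 1.8e-05 from edgeR). *ZBTB16*, a strongly hormone-induced transcription factor, fell from 16.6 ± 1.66 to 8.10 ± 0.972 CPM, a log2 fold change of -1.03 (standard error 0.12, adjusted p = 5.8e-07). *FKBP5*, a classic target, had -0.17 (adjusted p = 0.0033), but -0.02 (adjusted p = 0.65) with total-count scaling and 0.01 (adjusted p = 0.84) with limma on log2(TPM + 1). The calls of *DUSP1* and *PER1* were lost without Control replicate 2 (adjusted p = 0.068 and 0.10), and that of *DUSP1* also without Control replicate 1 (0.095) or WNK463 replicate 1 (0.12). *NR3C1*, the receptor gene itself, measured 184 ± 11.9 CPM in Control and 183 ± 7.07 CPM with WNK463 (SD, n = 3 each), and did not pass (log2 fold change -0.01, adjusted p = 0.92). With total-count scaling its sign turned and it passed (0.15, adjusted p = 0.024).

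**Figure D3:**
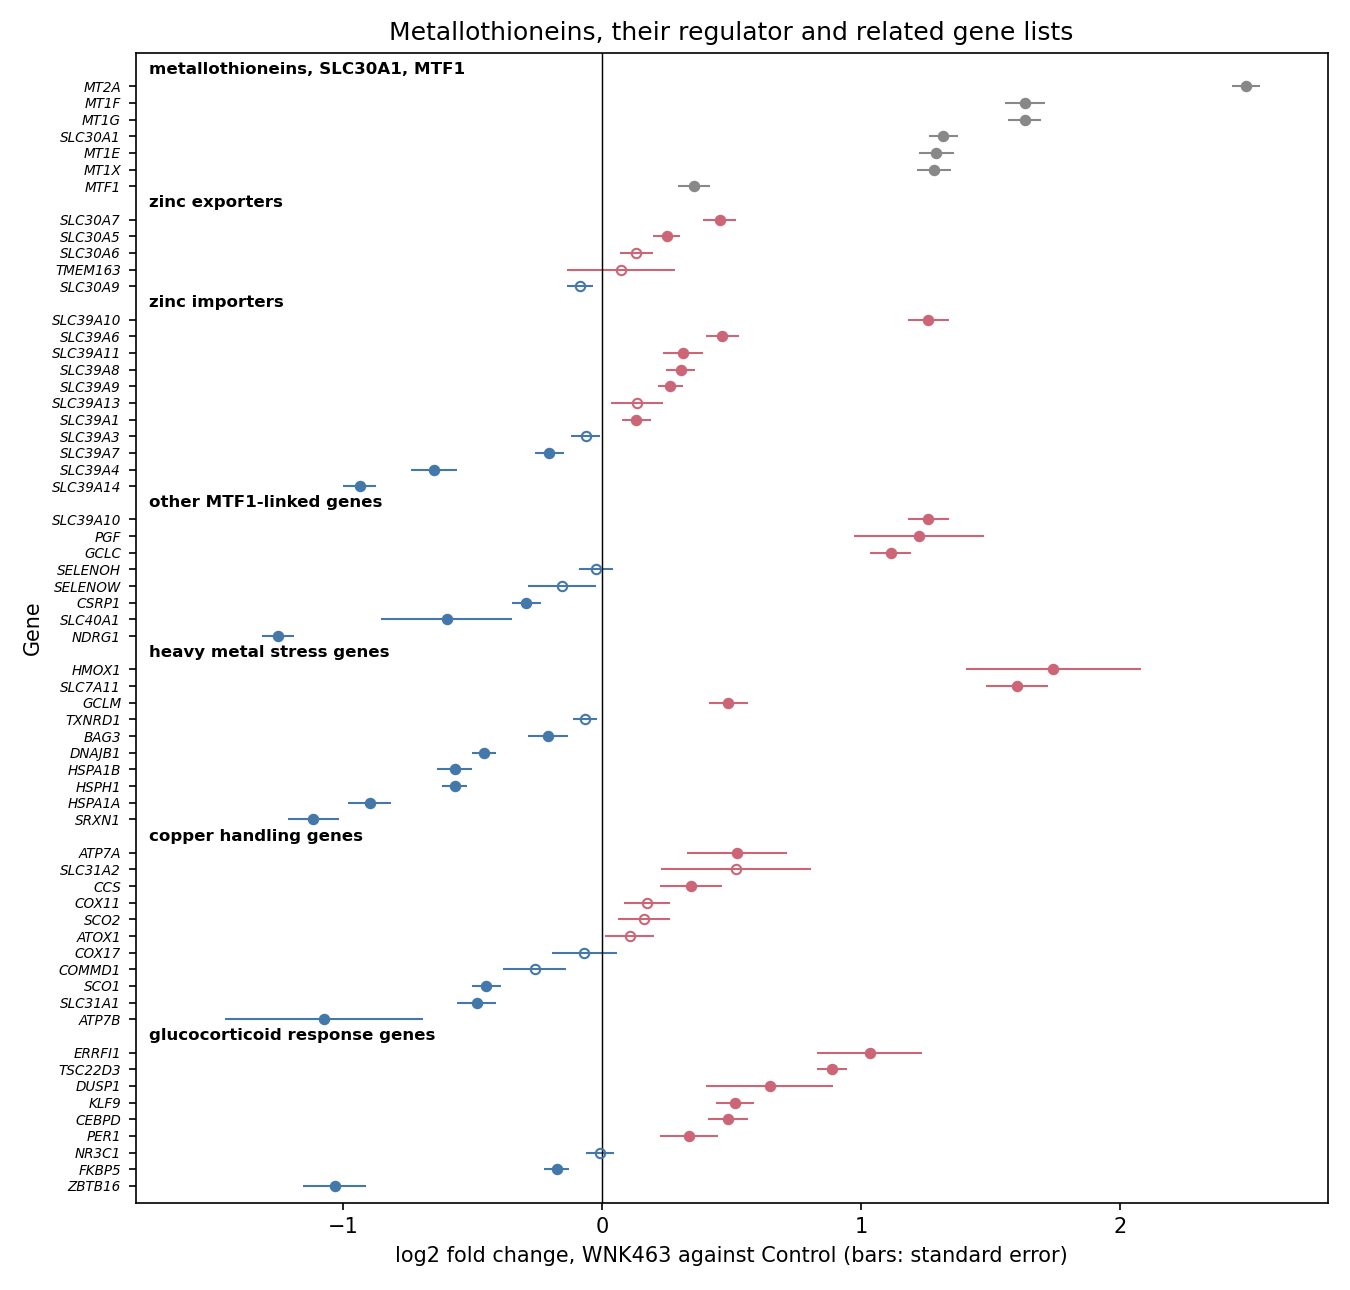
Log2 fold change of WNK463 against Control from edgeR with its standard error, for the 7 tested genes of the response in grey and for the tested genes of 6 lists, where filled points passed an adjusted p of 0.05 and open points did not. *MT2A* lies farthest to the right at 2.49, *SLC30A1* at 1.32 lies well right of the other zinc exporters tested, and the remaining lists hold genes on both sides of 0.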

How the data were processed

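RNA-seq of 3 Control and 3 WNK463 samples was analysed, grouped by sample title. The deposited table gives estimated counts per gene and sample as whole numbers. In 62 values a count of 0 stood beside a TPM above 0, so the counts appear to be rounded estimates. The authors also gave TPM values. The authors also deposited their group means of TPM with a small floor (treated as a score), the log2 ratio of these means, and p-values with adjusted p-values from a test that is not stated; none of these columns was used. The submitters' processing notes name fastp, Bowtie2, HISAT2, StringTie, RSEM, DESeq2 and edgeR with build GRCh38. Their roles, versions and settings are not given in the sources used here.

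Counts were fitted for all genes with edgeR 4.0.16 in R 4.3.3 (TMM, filterByExpr, quasi-likelihood test, Benjamini-Hochberg over 11973 genes). CPM use the TMM library sizes, and each standard error is the size of the log2 fold change over the square root of F. Total counts of 14915745 to 17411780 per sample set the depth. The filter left out 3 of the 10 members. Replicates differed beyond sampling noise (chi-square per degree of freedom 2.64 to 7.13). The deviations of same-numbered samples from their group means correlated at 0.02, -0.01 and -0.05 across genes, and no source pairs them.

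The members and lists were chosen with earlier results of these data known. Named genes are all members, up to 4 passing genes per list with the largest change, and 5 genes with the most similar profile. Other list genes that needed comment and 3 cell line markers were also named, both chosen after their values were seen. Alternatives were DESeq2 1.42.0, total-count scaling, other filters, a fold limit, a replicate block, limma 3.58.1 on log2(TPM + 1) and log2(TPM + 0.1) for genes with at least 1 TPM in 3 samples, and each sample left out. On simulated counts for this comparison, edgeR recovered 181 of 193 changed genes with 9 false calls among 11873 genes. Far more genes differed in the data, where 35.5% of those tested were higher and 35.3% lower. The simulation therefore cannot show how well the scaling or the error rate held in the data.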

Additional observations from a re-analysis of the deposited data

How the results depend on the processing

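The 7 members tested kept a positive log2 fold change under all 13 alternatives, from 2.45 to 2.68 for *MT2A*, 1.59 to 1.82 for *MT1F*, 1.57 to 1.82 for *MT1G*, 1.24 to 1.54 for *MT1E*, 1.26 to 1.47 for *MT1X*, 1.26 to 1.51 for *SLC30A1* and 0.32 to 0.55 for *MTF1*. The log2 ratio of the metallothionein sum was 1.91, 2.06 with total counts and 2.16 with summed TPM, and 1.89 to 1.94 with each sample left out. Total counts shift the median of all genes by 0.15.

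With a log2 fold change of at least 1 required, 1152 genes (9.62% of those tested) were higher and 665 lower. Of zinc exporters 0 were higher and 0 lower, and of zinc importers 1 was higher and 0 lower. Of MTF1-linked genes 3 were higher and 1 lower, and of heavy metal stress genes 2 were higher and 1 lower. Of copper genes 0 were higher and 1 lower, and of glucocorticoid genes 1 was higher and 1 lower. With limma on log2(TPM + 1) and log2(TPM + 0.1), 4980 and 4948 genes were higher, and 2658 and 2646 genes were lower. In both limma fits 4 MTF1-linked genes were higher and 1 lower. The same fits gave 5 glucocorticoid genes higher and 1 lower, and 5 copper genes higher and 2 lower. With total counts 5525 of all genes were higher and 3123 lower, against 4251 and 4222 with TMM. On that scaling 5 copper genes were higher and 3 lower, and 7 glucocorticoid genes were higher and 1 lower. The cause was not tested beyond the shift of the median.

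With each sample left out, 4010 to 4189 genes were higher and 4004 to 4237 lower, and 1 to 3 copper genes were higher and 2 to 4 lower. The copper count of higher genes was 1 without Control replicate 3, WNK463 replicate 2 or WNK463 replicate 3, against 2 in the full fit. Over the same fits, 2 to 3 zinc exporters and 5 to 6 zinc importers were higher and 3 importers lower, 3 MTF1-linked genes were higher and 2 to 3 lower, 3 heavy metal stress genes were higher and 5 to 6 lower, and 4 to 6 glucocorticoid genes were higher and 2 lower.

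No source says that the replicate numbers pair the samples, and the correlations of same-numbered samples cannot exclude it. With the number as a replicate block, 4223 genes were higher and 4175 lower, the log2 fold change of *MT2A* was 2.48, and among list genes *SLC39A1* (adjusted p = 0.069) and *SLC40A1* (0.065) lost their calls. 1 of the 6 samples correlated best with its own number. The depth limits what can be said of *MT1A*, *MT1H* and *MT1M*, whose counts were 0 to 4 per sample.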

Other observations

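Genes with a profile close to that of the summed metallothioneins were sought, with the metallothionein genes themselves left out of the ranking. Likeness was the Euclidean distance between mean-centred log2 CPM over the 6 samples, and it rests mainly on the difference between the groups. Before metallothioneins were left out, 11872 genes were compared. The nearest 5 were *PCOLCE*, an enhancer of procollagen processing, at a distance of 0.12, *PHLDA1*, a pleckstrin-homology-like protein, at 0.14, *CREBRF*, a regulator of CREB3, at 0.17, and *PKIB*, an inhibitor of protein kinase A, and *RGL1*, a Ral exchange factor, both at 0.18. *PHLDA1* went from 21.1 ± 1.37 to 84.8 ± 3.11 CPM and *CREBRF* from 10.9 ± 0.451 to 42.4 ± 2.89 CPM (SD, n = 3 each). *PCOLCE* was low, with 1.69 ± 0.071 CPM in Control and 6.20 ± 0.431 CPM with WNK463 (SD, n = 3 each).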
